A study of Mus musculus with 16 samples.

Results

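The 9 imprinted growth genes examined were Igf2, H19, Dlk1, Meg3, Igf2r, Gnas, Grb10, Cdkn1c and Plagl1. They were chosen by name, and a listed region was joined to a gene when its summit lay within 50 kb of that gene's transcription start and no other gene's start was nearer. Of 23511 listed regions, 46 were joined to these genes, out of 21835 genes with a start on the chromosomes analysed. The series profiled 6 histone marks by ChIP-seq in epithelial cells of the jejunum, with 1 library per mark and genotype. The KO libraries came from C57BL/6 neonates with a deletion of NCoR1, at postnatal day 12. The WT libraries came from C57BL/6 neonates without the deletion, of the same age. The protocol names the mice DIECUN and F/FUN without spelling the names out, and the driver of the deletion, the sex and the number of animals behind a library are not given in the sources used here. Lists of both genotypes also hold regions on a contig named for UGT1A, and none of the 9 genes lies on it.

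Imprinted genes are transcribed mainly from the copy inherited from the mother or mainly from the copy inherited from the father. The choice is set in the germ line by DNA methylation at imprinting control regions, which is read by factors such as CTCF and kept after fertilisation by the zinc finger protein ZFP57. Many imprinted genes act on growth before and shortly after birth, with genes of the paternal copy often promoting it and genes of the maternal copy often restraining it. H3K27ac, H3K9ac and H3K4me3 are found at active promoters and H3K4me1 and H3K27ac at enhancers, while H3K9me3 and H3K27me3 belong to silent chromatin. NCoR1 is a corepressor that brings histone deacetylase activity to nuclear receptors. The tags were not split by parental copy, so the maternal and paternal copies cannot be told apart in any value given here.

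The sequences of 6 windows show examples of the listed differences at Grb10, Gnas, Igf2, H19 and Dlk1. Each window holds 201 bases around the summit of a listed region and is read from the mm9 assembly, plus strand, 5′ to 3′. Capitals mark matches, on either strand, of the ZFP57 motif TGCCGC, the nuclear receptor half-site AGGTCA, which reads TGACCT on the other strand, or the CTCF motif. The first pair was higher in KO and the other 4 were higher in WT.
Grb10 H3K27ac KO-higher, chr11:11827869-11828069: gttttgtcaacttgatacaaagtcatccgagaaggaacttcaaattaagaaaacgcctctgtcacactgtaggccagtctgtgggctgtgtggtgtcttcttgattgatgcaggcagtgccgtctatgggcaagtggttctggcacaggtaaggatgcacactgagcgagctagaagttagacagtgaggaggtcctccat
Gnas H3K9ac KO-higher, chr2:174120611-174120811: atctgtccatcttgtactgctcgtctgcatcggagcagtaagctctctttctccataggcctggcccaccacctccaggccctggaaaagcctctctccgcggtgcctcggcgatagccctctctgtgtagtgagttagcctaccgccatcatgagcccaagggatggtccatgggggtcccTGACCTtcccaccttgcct
Grb10 H3K9ac WT-higher, chr11:11937765-11937965: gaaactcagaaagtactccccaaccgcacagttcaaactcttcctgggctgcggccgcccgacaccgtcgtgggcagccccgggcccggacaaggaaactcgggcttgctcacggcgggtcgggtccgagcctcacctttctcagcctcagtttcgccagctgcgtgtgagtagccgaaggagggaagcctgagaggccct
Igf2 H3K9ac WT-higher, chr7:149846550-149846750: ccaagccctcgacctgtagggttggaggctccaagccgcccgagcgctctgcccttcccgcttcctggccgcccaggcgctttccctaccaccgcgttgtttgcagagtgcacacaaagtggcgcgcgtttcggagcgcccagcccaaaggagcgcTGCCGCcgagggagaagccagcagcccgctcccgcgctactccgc
H19 H3K27ac WT-higher, chr7:149754878-149755078: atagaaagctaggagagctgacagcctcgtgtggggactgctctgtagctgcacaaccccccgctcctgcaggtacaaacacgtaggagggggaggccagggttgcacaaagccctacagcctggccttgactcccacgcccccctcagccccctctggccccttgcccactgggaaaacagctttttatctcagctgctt
Dlk1 H3K27ac WT-higher, chr12:110679780-110679980: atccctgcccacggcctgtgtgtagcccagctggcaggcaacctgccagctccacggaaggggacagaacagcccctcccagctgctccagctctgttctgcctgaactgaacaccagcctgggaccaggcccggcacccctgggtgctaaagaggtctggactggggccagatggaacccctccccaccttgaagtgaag
The Grb10 window higher in KO lies beyond the 3′ end of the gene, and the Gnas window lies in an intron beside the start of the antisense transcript Nespas. The Grb10 window higher in WT lies at the gene's promoter, the Igf2 window lies in an intron 0.46 kb from a start, the H19 window lies 7.46 kb downstream of a start, and the Dlk1 window lies 11.15 kb upstream. The Igf2 window holds 1 match of the ZFP57 letters and the Gnas window 1 match of the half-site.

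The imprinting control region of Igf2 and H19 is known in mice for several CTCF sites, whose binding on the maternal copy keeps enhancers downstream of H19 from acting on Igf2. The CTCF motif searched was CCGCNNGGNGGCAG, where N is any base, and it had 4 matches in the 5 kb before the most upstream H19 start. They are shown with 8 bases on each side, in mm9, minus strand (the strand of H19), 5′ to 3′, with the match in capitals.
2.18 kb before H19, chr7:149766214-149766227: agacgatgCCGCGTGGTGGCAGtacaatac
2.63 kb before H19, chr7:149766669-149766682: ggatgctaCCGCGCGGTGGCAGcatactcc
3.66 kb before H19, chr7:149767695-149767708: cagggttgCCGCACGGCGGCAGtgaagtct
3.90 kb before H19, chr7:149767939-149767952: gggagttgCCGCGTGGTGGCAGcaaaatcg
Of all 21835 genes, 50 (0.229%) had at least 1 such match in the 5 kb before their most upstream start, and H19 was the only gene (0.00458%) with at least 2. The other 8 imprinted growth genes had 0 matches there. No listed region of any mark overlapped the 4 matches, and the nearest, a WT-higher H3K4me1 region, lay 9.7 kb away. A listed region is a difference between KO and WT, so its absence says nothing of the level that both genotypes shared.

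Depth per library ranged between 27946003 and 47976125 tags in all, and between 23925163 and 32444815 tags without duplicates. The deposited lists hold regions where the KO library of a mark exceeded the WT library (KO-higher) or the WT library exceeded the KO library (WT-higher), at a q cutoff of 0.05 set by the authors. KO-higher lists of H3K4me1 and H3K27me3 were not analysed, so at these marks a gene could be found lower in KO but not higher. The fold of a region is the authors' value: the tags at the summit of the higher library plus 1, over the local background in the other genotype's library plus 1. Where tags are given below, the higher genotype's value is the pileup at the summit and the other genotype's value is that local background, both after the larger library was scaled to the smaller. With 1 library per mark and genotype there is no replicate error, no test was made, and every statement describes these libraries.

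Active marks at the 9 genes were listed mostly as WT-higher, that is, lower in KO. KO-higher regions of an active mark lay at 3 genes, Igf2r, Gnas and Grb10 (7 regions), beside 12.4% of all genes. WT-higher regions lay at 8 genes, all but Meg3 (38 regions), beside 27.5% of all genes. Of these 38 regions, 10 were of H3K4me1, which had no KO-higher list. With the repressive marks included, the same 3 and 8 genes had a region, beside 14.5% of all genes for KO-higher and 28.7% for WT-higher. With a fold of at least 3, a KO-higher region was left at 1 gene, Grb10 (beside 8.25% of all genes), and WT-higher regions at 5 genes (beside 11.1%). With a -log10 q of at least 5, a KO-higher region was left at Grb10 (beside 10.3%) and WT-higher regions at 7 genes (beside 13.2%). The median fold of KO-higher active regions was 2.69 at the 9 genes and 2.62 over the lists. The 9 genes cover 844.2 kb of sequence to which a region would be joined, from 55.4 kb for Igf2 to 170.4 kb for Grb10, and a gene with more such sequence can collect more regions.

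**Figure D1:**
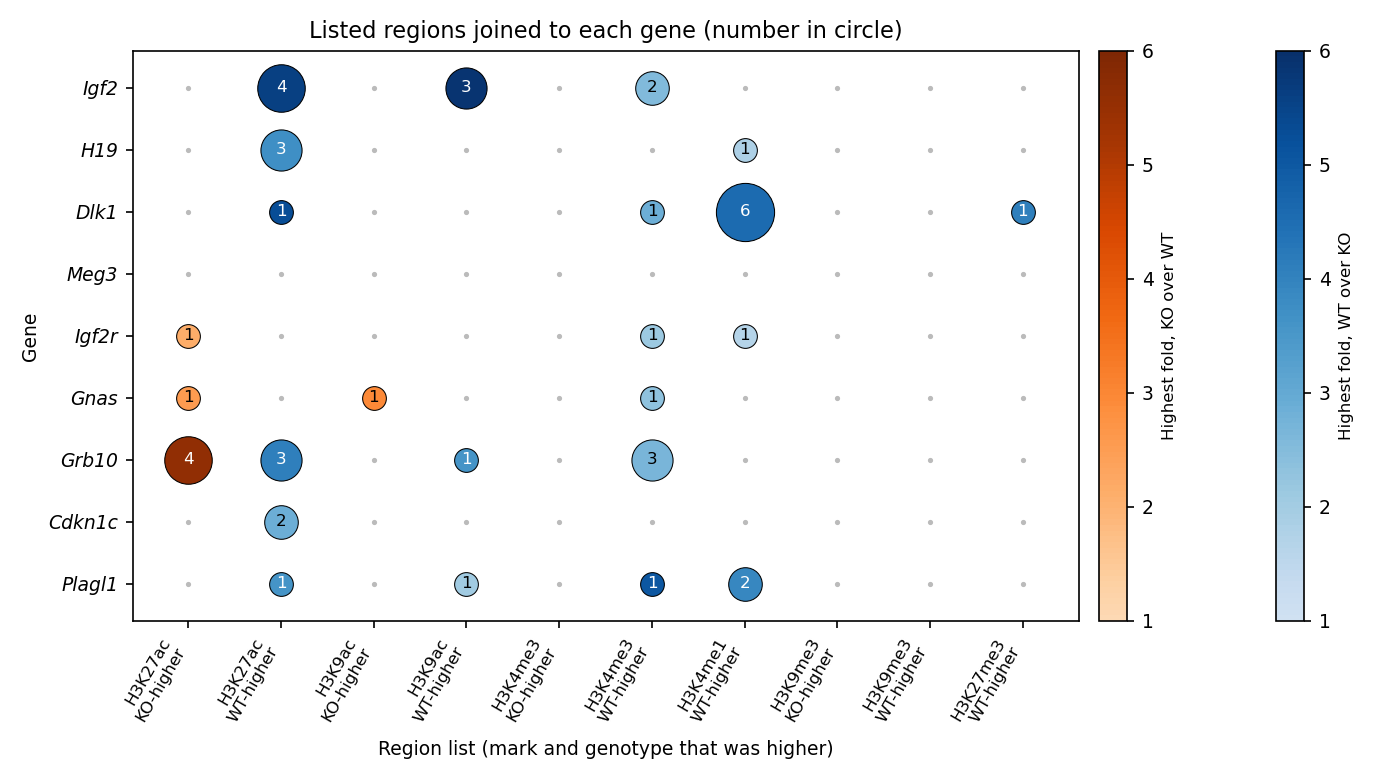
Number of listed regions joined to each of the 9 genes (rows) in each of the 10 lists (columns), with larger circles for more regions. Orange circles are KO-higher and blue circles WT-higher, darker for a higher fold, and grey dots stand for no region: 3 genes have orange circles, 8 have blue ones and Meg3 has neither.

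By mark, KO-higher H3K27ac lay at Igf2r, Gnas and Grb10, which are 3 of the 9 genes beside 11.5% of all genes. KO-higher H3K9ac lay at 1 gene, Gnas, beside 4.0% of all genes. No member had KO-higher H3K4me3 (0.298% of all genes) or KO-higher H3K9me3 (2.27%).
WT-higher H3K27ac lay at 6 genes, Igf2, H19, Dlk1, Grb10, Cdkn1c and Plagl1, beside 7.53% of all genes, and WT-higher H3K4me3 at 6 genes, Igf2, Dlk1, Igf2r, Gnas, Grb10 and Plagl1, beside 15.2%. WT-higher H3K9ac lay at 3 genes, Igf2, Grb10 and Plagl1, beside 7.59%, and WT-higher H3K4me1 at 4 genes, H19, Dlk1, Igf2r and Plagl1, beside 7.59%. Of the repressive marks, WT-higher H3K27me3 lay at Dlk1 alone, beside 0.866% of all genes, and WT-higher H3K9me3 lay at 0 members, beside 1.08%. The median fold of KO-higher H3K27ac regions was 2.62 at the 9 genes and 2.52 over the whole list. For WT-higher regions the medians at the 9 genes and over the list were 3.66 and 2.57 (H3K27ac), 3.93 and 2.80 (H3K9ac), 2.55 and 2.1 (H3K4me3), and 3.36 and 2.94 (H3K4me1).

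**Figure D2:**
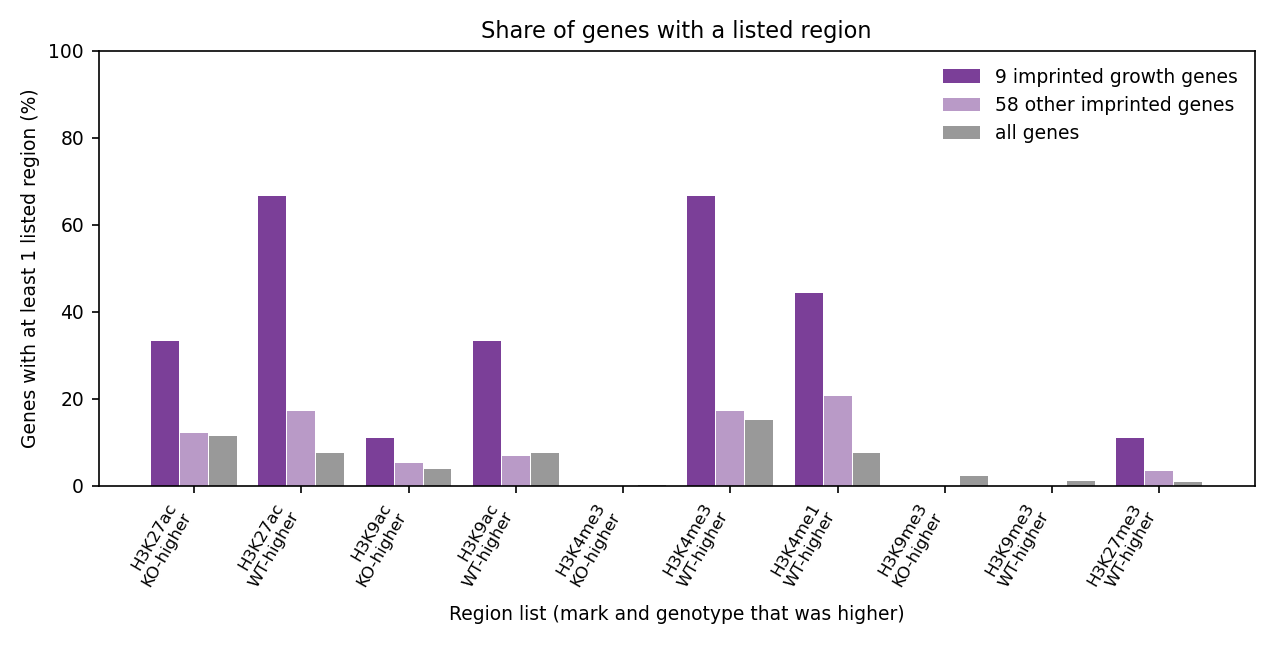
Share of genes with at least 1 listed region, in percent, for each list (mark and genotype that was higher). Dark bars are the 9 imprinted growth genes, light bars 58 other imprinted genes and grey bars all 21835 genes: the dark bar stands at 33.3% for KO-higher H3K27ac and at 66.7% for WT-higher H3K27ac and H3K4me3.

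Igf2, which encodes a growth factor of the insulin family and is transcribed from the paternal copy, had 9 WT-higher regions in H3K27ac, H3K9ac and H3K4me3 and no KO-higher region (mm9 chr7:149836673-149852721, minus strand). Acetylation at its internal promoters was several times lower in KO. The strongest H3K9ac region, chr7:149846417-149846776, had 7.14 tags in KO and 47 tags in WT (fold 5.90, WT over KO). The other H3K9ac regions had 6.13 tags in KO and 27 in WT (fold 3.93), and 3.38 tags in KO and 20 in WT (fold 4.79). All 3 were thus low in the KO library and well above it in the WT library.
For H3K27ac, the widest region, 916 bp long, had 11 tags in KO and 56.6 in WT (fold 4.80). The other H3K27ac regions had 5.19 tags in KO and 33.7 in WT (fold 5.61), 2.60 tags in KO and 17.9 in WT (fold 5.24), and 6.26 tags in KO and 30.8 in WT (fold 4.38). In its list, the region with fold 5.61 ranked above 96.8% of regions, and the H3K9ac region with fold 5.90 above 96.9%. H3K4me3 differed less, with 21.4 tags in KO and 56 in WT (fold 2.55) at 1 region and 29.1 tags in KO and 57 in WT (fold 1.93) at the other. Of the 9 regions, 8 lay within 1 kb of an Igf2 start, and the remaining one 2.12 kb before a start. The antisense transcript Igf2as starts in the same stretch: 4 of the 9 regions lay nearer to its start than to a start of Igf2, and the marks do not show from which strand they arose.

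H19, a non-coding RNA transcribed from the maternal copy, had 4 WT-higher regions, and none was at its promoter (chr7:149761434-149764048, minus strand). All 4 lay downstream of the gene, 6.04 to 13.12 kb from its nearest start. The farthest, chr7:149749259-149749421, had the highest fold, with 7 H3K27ac tags in KO and 28.8 in WT (fold 3.72), and it lay nearer to the start of the non-coding transcript Nctc1, at 4.82 kb. The next had 14 H3K27ac tags in KO and 44.7 in WT (fold 3.04). Nearest to the gene, an H3K27ac region with 27 tags in KO and 53.6 in WT (fold 1.95) shared 138 bp with an H3K4me1 region with 29.9 tags in KO and 55 in WT (fold 1.81). The KO library was thus lower at each of the 4 regions, by a smaller fold in those nearest to the gene. The difference in tags, KO minus WT, did not follow the distance. It was -21.8 at the farthest region, -30.7 at the next, and -26.6 (H3K27ac) and -25.1 (H3K4me1) nearest to the gene. In the mouse, enhancers that serve both Igf2 and H19 are known downstream of H19, and whether these regions are such enhancers was not tested.

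Dlk1, a membrane protein that holds back cell differentiation and is transcribed from the paternal copy, had 9 WT-higher regions in 4 marks and no KO-higher region (chr12:110691033-110701546, plus strand). None lay within 1 kb of a start. Upstream of the gene, 6 H3K4me1 regions lay 2.38 to 41.3 kb from its nearest start, with folds of 2.40 to 4.57. The strongest of them, 27.88 kb upstream, had 5.13 tags in KO and 27 in WT (fold 4.57). The widest, 798 bp long and 34.87 kb upstream, had 15.4 tags in KO and 56 in WT (fold 3.48), and the one nearest to the gene had 11.2 tags in KO and 40 in WT (fold 3.35). An H3K27ac region 11.15 kb upstream had 2.75 tags in KO and 18.9 in WT (fold 5.30), which ranked above 95.7% of its list. An H3K4me3 region 14.77 kb upstream had 5.99 tags in KO and 19 in WT (fold 2.86). The only repressive region at any of the 9 genes, WT-higher H3K27me3 at chr12:110711893-110712092, had 4 tags in KO and 19.6 in WT (fold 4.12), equal to the median of its list. It lay between Dlk1 and Meg3, 20.93 kb past the most upstream Dlk1 start. At Dlk1, then, active marks and this repressive mark alike were lower in KO, at places that shared no bases.
Dlk1 also held the regions nearest to the 50 kb limit. The farthest region inside it was the H3K4me1 region 41.3 kb from a start (fold 3.62), and just outside lay a WT-higher H3K27ac region at 50.9 kb (fold 3.42). Meg3, a non-coding RNA of the same domain transcribed from the maternal copy, had no region in any list (chr12:110779211-110809936, plus strand). The nearest listed region, the H3K27me3 region above, lay 67.1 kb from its starts.

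Igf2r encodes the receptor that takes up IGF2 for breakdown and is transcribed in mice mainly from the maternal copy (chr17:12875272-12962530, minus strand). It had regions in both directions. A KO-higher H3K27ac region in an intron, chr17:12954683-12954865, had 37 tags in KO and 16.9 in WT (fold 2.13, KO over WT). At the promoter, 0.12 kb from a start, an H3K4me3 region had 37.6 tags in KO and 81 in WT (fold 2.12, WT over KO). An H3K4me1 region in an intron had 57.2 tags in KO and 95 in WT (fold 1.65, WT over KO), which ranked above 1.48% of its list. H3K27ac in the intron, 7.76 kb from the start, was thus higher in KO, while H3K4me3 at the promoter was lower in KO.

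Gnas encodes the stimulatory G protein alpha subunit, and its locus has several alternative starts that differ in their imprinting (chr2:174109821-174172245, plus strand). KO-higher H3K27ac and H3K9ac regions shared 145 bp in an intron. The H3K27ac region, chr2:174120474-174120833, had 42 tags in KO and 15.9 in WT (fold 2.55, KO over WT), and the H3K9ac region had 31.6 tags in KO and 10 in WT (fold 2.96, KO over WT). They lay 2.60 and 2.65 kb before a Gnas start, but 0.13 and 0.18 kb from the start of Nespas, a non-coding transcript of the opposite strand. Counted with the starts of all transcripts, both belong to Nespas, and KO-higher regions are left at Igf2r and Grb10 only. A WT-higher H3K4me3 region 45.47 kb past the most upstream start and 0.21 kb before another one had 25.7 tags in KO and 61 in WT (fold 2.33, WT over KO). Gnas was thus higher in KO for acetylation towards the upstream end and lower in KO for H3K4me3 at a start farther down.

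Grb10 encodes an adaptor that binds the insulin and IGF1 receptors and restrains their signalling, and in mice it is transcribed from the maternal copy in most tissues (chr11:11830511-11938686, minus strand). Its ends differed in direction. The KO-higher regions, 4 of H3K27ac, lay 74.95 to 110.72 kb past the most upstream start. The strongest, chr11:11827877-11828098, lay beyond the 3′ end and had 27 tags in KO and 3.99 in WT (fold 5.62, KO over WT), which ranked above 98.1% of its list. Another beyond the 3′ end had 23 tags in KO and 7.94 in WT (fold 2.69). Within the gene, 1 region in an exon, 0.81 kb from an internal Grb10 start, had 42 tags in KO and 15.9 in WT (fold 2.55). Another, in an intron, had 33 tags in KO and 10.9 in WT (fold 2.85).
The WT-higher regions, 7 in H3K27ac, H3K9ac and H3K4me3, all lay within 1 kb of a start at the 5′ end. H3K27ac had 6.00 tags in KO and 27.8 in WT (fold 4.11, WT over KO) at the middle of 3 neighbouring stretches, with folds of 3.1 and 3.37 at the other two. H3K9ac had 9.03 tags in KO and 35 in WT (fold 3.59). H3K4me3 had 12.5 tags in KO and 35 in WT (fold 2.67), 19.7 tags in KO and 54 in WT (fold 2.66), and 27.4 tags in KO and 61 in WT (fold 2.19) at the same 3 stretches. All 3 marks were thus lower in KO at the promoter of the 5′ end, while H3K27ac was higher in KO towards and beyond the 3′ end.

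**Figure D3:**
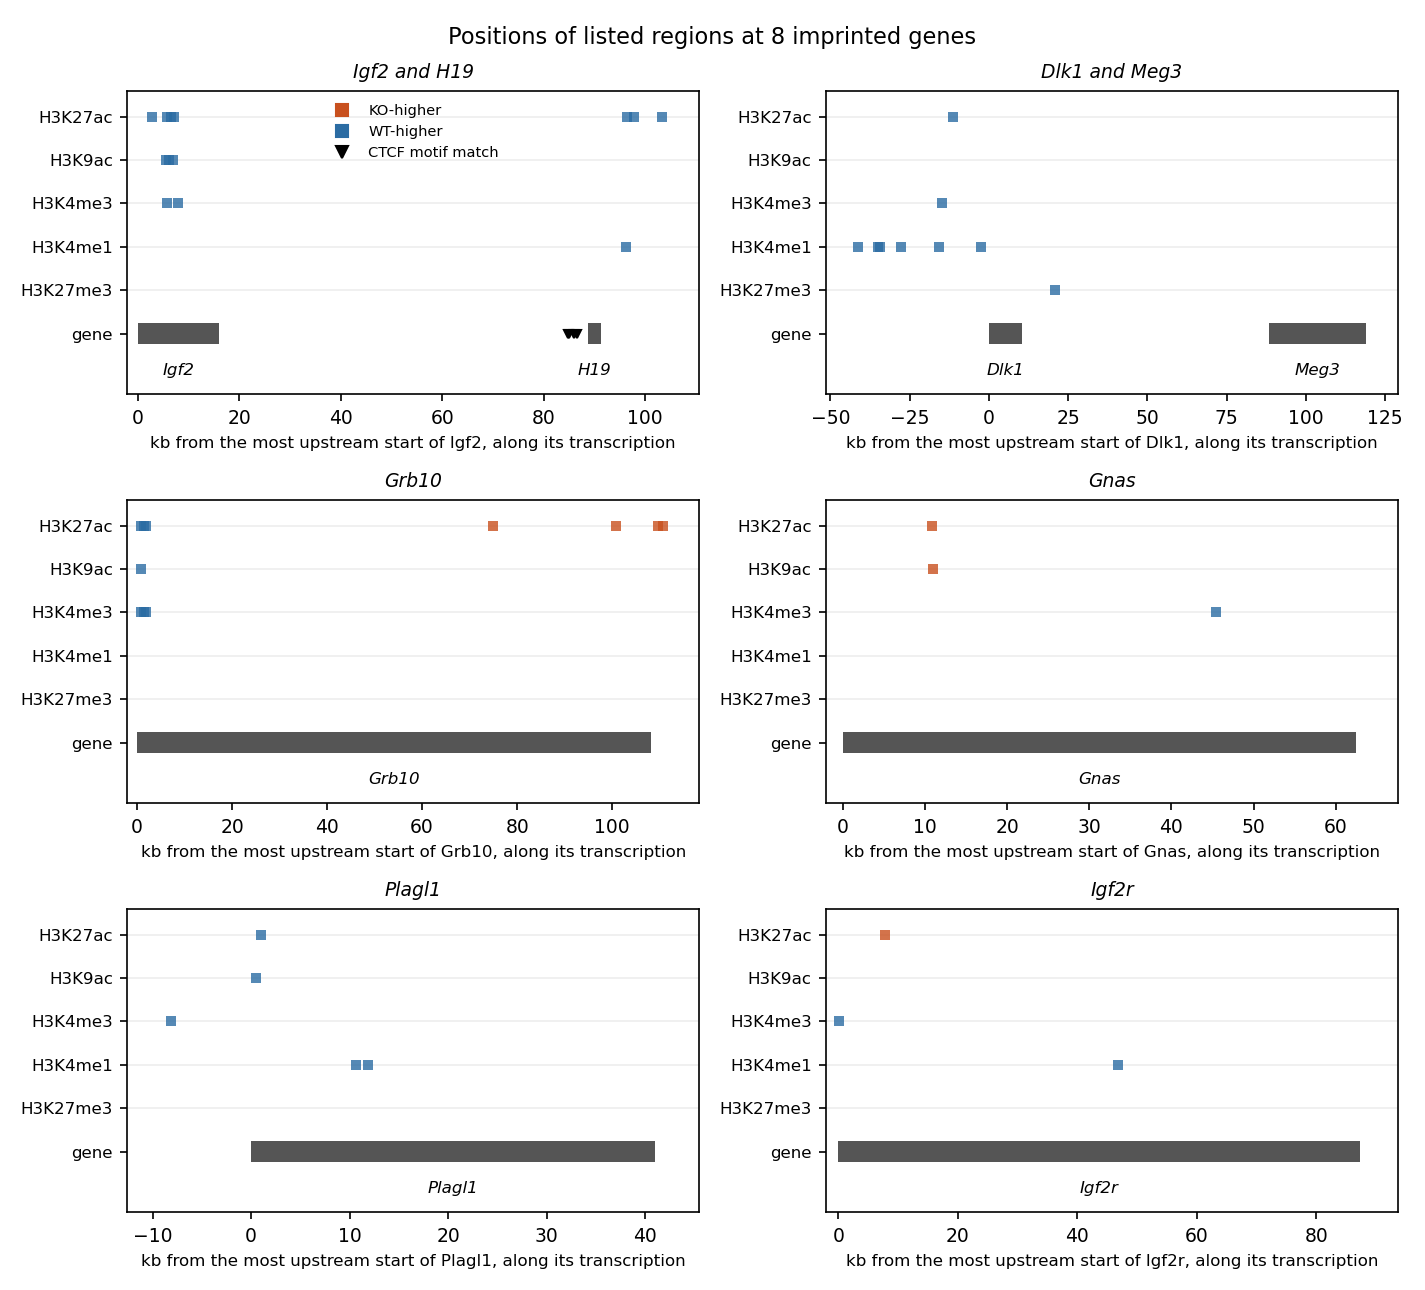
Positions of listed regions at 8 of the 9 genes, by mark, in kb from the most upstream start of the gene named under each panel and along its transcription; black bars are genes and triangles the CTCF motif matches before H19. Orange squares are KO-higher and blue squares WT-higher: at Grb10 the blue squares sit at 0.82 to 1.91 kb and the orange ones at 74.95 to 110.72 kb, and at Dlk1 the H3K4me1 squares lie upstream.

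Cdkn1c, an inhibitor of cyclin-dependent kinases transcribed from the maternal copy, had 2 WT-higher H3K27ac regions and no other (chr7:150644255-150646955, minus strand). The region 4.29 kb upstream had 14.2 tags in KO and 42.7 in WT (fold 2.87). The region 23.16 kb downstream of the start had 19 tags in KO and 44.7 in WT (fold 2.28). The KO library was lower at both, and neither lay at the promoter.

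Plagl1, a zinc finger transcription factor transcribed from the paternal copy that is known in mice to regulate other imprinted genes, had 5 WT-higher regions in all 4 active marks (chr10:12810497-12851500, plus strand). Near its start, H3K27ac had 7 tags in KO and 27.8 in WT (fold 3.60) and H3K9ac had 23.5 tags in KO and 49 in WT (fold 2.04). An H3K4me3 region 8.08 kb upstream had 1.96 tags in KO and 14 in WT (fold 5.06), which ranked above 97.0% of its list. The H3K4me1 regions, 9.58 and 10.73 kb from a start within an intron, had 12.8 tags in KO and 53 in WT (fold 3.91) and 10.3 tags in KO and 37 in WT (fold 3.38). Every region at Plagl1 was lower in KO, and no stretch was shared between marks.

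**Figure D4:**
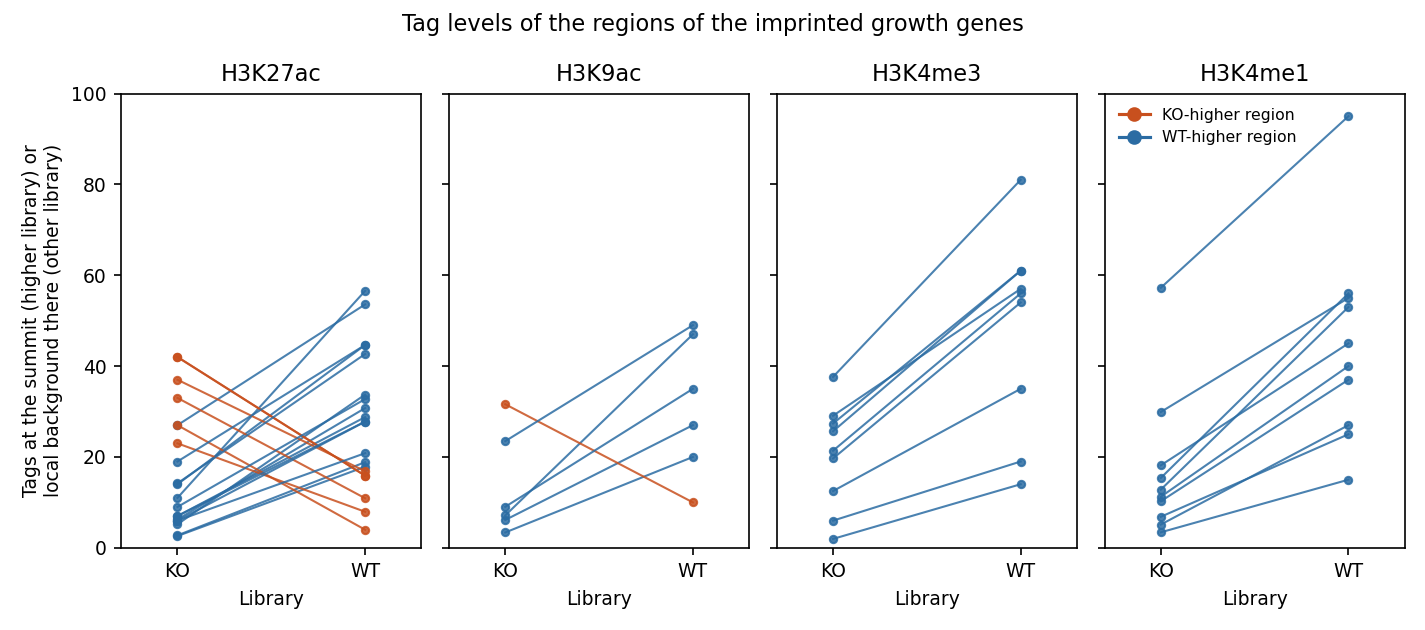
Tags in the KO library (left) and the WT library (right) for each region of an active mark at the 9 genes, as the pileup at the summit in the higher library and the local background there in the other; the axis is linear from 0. Orange lines are the 7 KO-higher regions and blue lines the 38 WT-higher regions; the WT-higher H3K4me1 region of Igf2r is the topmost line, at 57.2 tags in KO and 95 in WT.

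Regions of different marks shared bases at 4 of the 9 genes, Igf2, H19, Gnas and Grb10. There were 13 such pairs, which involved 17 of the 46 regions, and in all 13 both marks differed in the same direction. At Igf2 and Grb10, H3K27ac, H3K9ac and H3K4me3 were lower in KO over the same bases. The shared stretch at Gnas was the only one higher in KO.
Position differed between the directions in the way of the whole lists. Within 1 kb of a start lay 1 of 7 KO-higher active regions at the 9 genes (14.3%, beside 11.9% of the lists) and 19 of 38 WT-higher ones (50.0%, beside 44.7%). The 5 WT-higher H3K9ac regions, at Igf2, Grb10 and Plagl1, were all within 1 kb of a start, beside 48.7% of their list. None of the 10 WT-higher H3K4me1 regions was, beside 11.6% of their list.

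Base composition and motif letters were compared in windows of 201 bases around every summit. The half-site AGGTCA was present on either strand in 3 of 7 KO-higher windows at the 9 genes (42.9%, beside 13.7% of all KO-higher windows) and in 3 of 39 WT-higher windows (7.69%, beside 10.7%). Both Gnas windows overlap and hold the same match, so the 3 KO-higher windows rest on 2 separate sequences, at Gnas and Grb10. The ZFP57 letters TGCCGC were present in 0 of 7 KO-higher windows (4.23% of all) and in 8 of 39 WT-higher windows (20.5%, beside 11.7%), at Igf2, Dlk1, Igf2r, Grb10, Cdkn1c and Plagl1; Igf2 windows of different marks overlap too. The CTCF motif was in none of the 46 windows, beside 0.00% of all KO-higher and 0.00% of all WT-higher windows. Median GC content was 51.2% in KO-higher windows at the 9 genes (54.2% over all) and 61.7% in WT-higher windows (59.7% over all). A match describes letters in the window and says nothing of whether a factor was bound.

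Markers of the epithelium and of other cell types were counted in the same way, beside the 12.4% of all genes with a KO-higher and the 27.5% with a WT-higher region of an active mark. KO-higher active regions lay at 10 of 11 epithelial markers, among them Vil1, Krt20, Fabp1, Alpi and Epcam, and WT-higher active regions at 2, Krt20 and Lct. Vil1 stood apart from the other epithelial markers, with 41 KO-higher regions in all, among them the list's only KO-higher H3K4me3 and H3K9me3 regions (8 and 11), and its highest H3K9me3 fold was 71.03, with 196 tags in KO and 1.77 in WT. For stromal markers the counts were 0 KO-higher and 3 WT-higher of 13, namely Lum (H3K27ac, 9 tags in KO and 30.8 in WT), Des (H3K4me3, 14.5 tags in KO and 40 in WT) and Twist1 (H3K4me3, 20.5 tags in KO and 44 in WT). Col1a1, Col1a2, Col3a1, Col6a1, Pdgfra, Vim, Acta2, Tagln, Myh11 and Thy1 had no region of an active mark. Endothelial markers had 1 KO-higher (Tie1) and 1 WT-higher (Cdh5) of 6, immune markers 0 and 1 (Ikzf1) of 8, and neural markers 0 and 2 (Elavl4 and S100b) of 6. The WT-higher share was thus no higher than that of all genes for stromal, endothelial and immune markers. For neural markers it was 2 of 6, near the share of all genes for so few markers. Elavl4 (fold 1.92) and S100b (fold 3.03) had 1 H3K4me3 region each. The lists hold only differences, so the presence of the labelled epithelial cells could not be checked against levels. Whether a different share of non-epithelial cells in KO and WT had a part in the WT-higher regions at the growth genes was not tested, and fewer such cells cannot be told apart from less of a mark per cell.

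Other imprinted genes were also listed more often as WT-higher, as were all genes. Of 58 other imprinted genes, 7 had a KO-higher region of any mark (14.5% of all genes) and 25 a WT-higher one (28.7% of all genes). The KO-higher genes with the highest folds were Ddc, an amino acid decarboxylase (H3K27ac, 23 tags in KO and 4.2 in WT, fold 4.62), Cobl, an actin nucleator (H3K27ac, 16 tags in KO and 2.80 in WT, fold 4.47), Mcts2 (fold 2.69) and Phactr2 (fold 2.17). Ddc and Cobl flank Grb10 on the same chromosome. The WT-higher genes with the highest folds were Gatm, which makes the creatine precursor (H3K27ac, 2.60 tags in KO and 17.9 in WT, fold 5.24), Ppp1r9a (H3K9ac, fold 4.99), Pon2 (H3K4me1, fold 4.93) and Snrpn (H3K4me3, fold 4.38).
Among 20 genes of the IGF pathway, 6 had a KO-higher (beside 14.5% of all genes) and 10 a WT-higher region of any mark (beside 28.7%). KO-higher regions lay at the receptor substrate Irs2 (H3K9me3, 16 tags in KO and 2.93 in WT, fold 4.33), the RNA-binding protein Igf2bp2 (H3K27ac, fold 3.24) and the kinase Akt2 (H3K27ac, fold 2.76), among others. The H3K9me3 region is the one of highest fold among 6 KO-higher regions at Irs2, which also include H3K27ac and H3K9ac. Igfbp5, a binding protein for IGFs (H3K4me1, 6.83 tags in KO and 39 in WT, fold 5.11), the ligand Igf1 (H3K9ac, 4.52 tags in KO and 26 in WT, fold 4.90), Igfbp2 (H3K27ac, fold 3.64) and Igf2bp1 (H3K9ac, fold 3.02) led the WT-higher ones. Irs2 and Igf2bp2 also had WT-higher H3K4me1 regions. The ligand genes Igf2 and Igf1 were both lower in KO for H3K9ac.
Of 17 genes that act on or read imprints or DNA methylation, 7 had a KO-higher (beside 14.5% of all genes) and 6 a WT-higher region (beside 28.7%). Ctcf had KO-higher H3K27ac, and Zfp57, Trim28 and Dnmt1 had no region in any list. The DNA methyltransferase genes Dnmt3a and Dnmt3b had regions in both directions. For H3K27ac, Dnmt3b had a region with 21 tags in KO and 3.59 in WT (fold 4.79, KO over WT) and another with 15 tags in KO and 44.7 in WT (fold 2.85, WT over KO). Dnmt3a had 55 H3K27ac tags in KO and 18.9 in WT (fold 2.82, KO over WT) at a region and 5.42 H3K9ac tags in KO and 22 in WT (fold 3.58, WT over KO) at another. Eed, a subunit of the complex that sets H3K27me3 (H3K27ac, fold 3.27), and Zfp445 (H3K27ac, fold 2.2) were the other KO-higher genes with the highest folds. On the WT-higher side they were Smchd1 (H3K4me1, fold 3.45) and Ctcfl (H3K27ac, fold 3.32). Ctcfl, too, had regions in both directions, 10 KO-higher and 1 WT-higher. Its strongest KO-higher region had 174 H3K27ac tags in KO and 79.4 in WT (fold 2.18, KO over WT).

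RNA of the 9 genes could not be set beside the marks: the authors' deposited table gives a value for 0 of them, including Dlk1, whose 6 H3K4me1 regions it lists. That table names other transcripts for 4 H3K4me1 regions joined here to members, Mir675 for H19, Airn for Igf2r and Hymai for both Plagl1 regions. Of the other imprinted genes, 10 have an RNA value in the authors' deposited table, of which 0 were higher in KO (beside 4.97% of the 1549 genes it covers) and 4 were lower in KO (beside 9.62%) at an FDR of 0.05. By that table the log2 fold change, KO over WT, was -1.52 for Gatm (FDR 2.12e-11), -0.61 for Dhcr7 (FDR 8.7e-05), -0.31 for Ppp1r9a (FDR 0.0223) and -0.38 for Trappc9 (FDR 0.0397). The table covers genes named beside WT-higher H3K4me1 regions, so its genes share that choice.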

How the data were processed

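Regions were taken from 10 of 12 deposited lists, since 2 (KO H3K4me1 and KO H3K27me3) repeat the regions of the WT list. Per the file headers, MACS 2.0.10.20130419 called each list against the library of the other genotype, with a q cutoff of 0.05, 1 tag kept per position and background windows of 1 and 10 kb. The submitters' processing notes name MACS2 2.1.1, Bowtie2 2.2.9, CASAVA 1.8.2 and HOMER 3.12, and the labels give mm9 and 50 cycles, whereas the headers give a tag size of 75 bp; this was not resolved. Per the file headers, each deposited region carries a signal (the pileup of tags at its summit), a ratio or fold over the local background, and the -log10 p-value and q-value. The level in the other genotype was computed as (pileup + 1)/fold - 1. With it, a Poisson model returned the deposited p-value within 1% of its -log10 for 23509 of 23511 regions.

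Starts were those of protein-coding genes plus H19 and Meg3 in GENCODE M1 models of mm9 (NCBIM37). Starts of all transcripts were an alternative, and this choice was settled with both counts known. The members and gene lists were chosen with earlier results of these data known. All 9 members are named, and from each other list up to 4 genes per direction with the highest fold, of which 1 is not reported here; stromal genes without a region and Epcam, Ctcf, Zfp57, Trim28, Dnmt1, Dhcr7 and Trappc9 were named after their values were seen. Of 68 other imprinted genes listed, 58 had a usable model. Cdx1, Pdgfrb and the 4 input libraries were not analysed here.

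RNA was taken as the log2 change and the adjusted p-value (FDR) of the authors' deposited table. Its direction was taken to be KO over WT, as HOMER names such columns, and no source used here names the tool of that test. The 12 per-library RNA columns were not used. Calculations used Python 3.11.15, NumPy 2.4.6 and SciPy 1.17.1, and the joining of regions to starts was tested on simulated data. No p-value was computed, because each mark and genotype has 1 library.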

Additional observations from a re-analysis of the deposited data

How the results depend on the processing

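No replicate could be left out and no fold has a replicate error, so these values show only how the choices of rule act. With a -log10 q of at least 5, 1 KO-higher region at 1 gene, Grb10, and 22 WT-higher regions were left, the highest H3K4me3 fold of Grb10 became 2.66, and 3 KO-higher and 13 WT-higher genes of the other imprinted genes were left. With a fold of at least 3, 1 KO-higher region at 1 gene, again Grb10, and 24 WT-higher regions at 5 genes were left. With a 10 kb limit, the highest folds became 2.85 for KO-higher H3K27ac at Grb10, 3.35 for WT-higher H3K4me1 at Dlk1 and 3.04 for WT-higher H3K27ac at H19. Counted by gene body and the 5 kb before it, 25 WT-higher regions were left. These settings remove regions by construction. With starts of all transcripts, 38 of 46 regions were left and the KO-higher genes were Igf2r and Grb10. The 100 kb limit, midpoints and merging within 1 kb kept the counts of regions and of genes within 1.5 times. With a 2.5 kb promoter, 12.5% of the Dlk1 regions of active marks lay at a promoter, against 0 with 1 kb, and the share over all KO-higher active regions was 23.5%, against 11.9% with 1 kb. A stricter RNA threshold gave no value, since no member is in the table. No paired analysis was possible because each mark and genotype has 1 library. Depth limits what can be listed: the lowest pileup at these genes was 14 tags, for WT-higher H3K4me3 at Plagl1.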
